A study of Mus musculus with 2 samples.

Results

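The 10 genes Ednrb, Igfbp4, Folr2, Fcna, Cbr2, Clec10a, Cd38, Mrc1, Tslp and Bmp2 are those that mark cardiac macrophages expressing Lyve1, and they are followed here from wild-type (WT) hearts into hearts in which Lyve1 was deleted. They were taken by symbol from the 32285 genes of the count matrices, and all 10 were present. They were selected on their measured UMI levels, which stood high in the Lyve1-expressing cells of these libraries, so their height in those cells is a description and not a finding. Earlier results of these data, the Lyve1-/- library included, were known when they were chosen, so their levels in that library are a description as well.

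CD45+ leukocytes were sorted from ventricles of neonatal mice 7 days after myocardial infarction (MI) at postnatal day 2, at 9 days of age, and sequenced as single cells from the 5′ end of each transcript. There was 1 library from WT mice and 1 from Lyve1-/- mice, and each pooled 5 infarcted hearts. The deletion is germline, so every cell type of those mice carried it, and no uninfarcted heart was included. The wild-type strain used for this experiment is not given in the sources used here. With 1 library per genotype a difference between genotypes has no replicate check, no test was made, and every interval given is 95% and covers counting error in these libraries alone.

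The libraries held 5713 (WT) and 5285 (Lyve1-/-) barcodes with 67968938 and 61555917 unique molecular identifiers (UMIs, each standing for 1 captured transcript). After the study's limits on cells and removal of likely doublets, 4187 and 3391 cells were kept, with medians of 11106 and 12856 UMIs. Of the kept cells 3 barcodes occurred in both libraries. CCR2-negative macrophage-like cells numbered 1067 in WT and 462 in Lyve1-/-, which was 25.5% and 13.6% of kept cells. They fell into 7 clusters, named below by the leading pair of genes that are neither Lyve1 nor one of the 10. Clusters were made with Lyve1, the 10 genes and the genes of their pathways left out of the input. The 2 libraries were first aligned to each other, so that like cells of both fall together. CCR2-positive macrophage-like cells formed 1 cluster of 211 and 197 cells led by Spp1 and Mmp19, and monocyte-like cells 2 clusters of 418 and 454 cells in all. The macrophage and monocyte cells clustered together formed 15 clusters of 1975 WT and 1324 Lyve1-/- cells. Those outside the named classes were left unnamed, and the 10 genes are not described in them. Ccr2 stood at 43.0 and 62.3 CPM (a gene’s UMIs scaled by the total UMIs of the same cells) in the CCR2-negative class and at 558 and 694 CPM in the CCR2-positive cluster. The macrophage clusters were divided by their Ccr2 level, so this difference follows from the naming.

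LYVE-1 is a hyaluronan receptor of lymphatic endothelium that is also carried by a class of tissue-resident macrophages that sit along vessels, clear debris by endocytosis and are largely maintained without input from blood monocytes. The 10 genes span several parts of that cell. Ednrb (endothelin receptor type B), Folr2 (folate receptor beta), Mrc1 (the mannose receptor CD206) and Clec10a (a lectin for galactose-type sugars) lie at the surface. Fcna (ficolin A, which starts the lectin pathway of complement), Igfbp4 (which binds insulin-like growth factors), Bmp2 (a bone morphogenetic protein) and Tslp (a cytokine) are secreted. Cbr2 reduces carbonyl compounds, and Cd38 is a surface enzyme that consumes NAD.

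The genes are spread over several chromosomes, and Folr2 shares chromosome 7 with Lyve1. In GRCm38, Ednrb spans chr14:103814625-103844402, Fcna chr2:25624666-25628030, Folr2 chr7:101839988-101857194 and Cbr2 chr11:120729489-120732114, all on the minus strand. On the plus strand lie Igfbp4 at chr11:99041244-99054392, Clec10a at chr11:70156197-70170834, Cd38 at chr5:43868553-43912375, Mrc1 at chr2:14229392-14332057 and Bmp2 at chr2:133552159-133562885. Lyve1 lies at chr7:110850607-110863239 on the minus strand, 8.99 Mb from Folr2. RefSeq promoter windows (GRCm38.p6, 250 bases before to 50 after a start) were at hand for 7 of the 10 genes, as 8 windows, since Folr2 has a pair of starts. The windows were searched on both strands for the core motifs of macrophage factors. The core TGCTGA bound by MAF, a factor of resident macrophages, occurred in 5 of the 8 windows (Fcna, Cbr2, Ednrb and both of Folr2) against 19.5% of all 32851 windows. The PU.1 core GAGGAA occurred in 3 windows (28.3% of all) and the AP-1 motif TGANTCA in 1 (7.81% of all), and no match of one motif overlapped a match of another. These matches are letters in a window and not measured binding. The stretches upstream of a start that hold TGCTGA, outside every annotated exon, are shown on the minus strand 5′ to 3′ with the match in capitals.
Fcna, chr2:25628037-25628103: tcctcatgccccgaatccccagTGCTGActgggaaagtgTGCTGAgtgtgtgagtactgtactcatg
Folr2, upstream start, chr7:101857383-101857432: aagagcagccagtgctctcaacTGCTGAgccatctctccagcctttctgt
Folr2, downstream start, chr7:101845332-101845372: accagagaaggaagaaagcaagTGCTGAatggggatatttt
Ednrb, chr14:103843916-103843951: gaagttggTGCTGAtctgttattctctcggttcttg

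Lyve1-/- macrophages with all 10 genes at levels near those of WT were present in the Ccl7 Cd163 cluster. Most of the 10 were lower in the Olfml3 Fcrls, Gdf15 Ccl12, Saa3 Prg4 and Cd207 Vsig4 clusters. In the Nes Ccnd1 cluster 7 were higher and 3 lower, and in the Hist1h2ae Hist1h2ab cluster 5 were higher and 5 lower. In the cluster led by Ccl7 and Cd163, where Lyve1 is highest in WT, Lyve1 stood at 1793 CPM against 36.6 CPM in Lyve1-/-, a log2 ratio of -5.27 (interval -5.47 to -5.07). In that same cluster the 10 genes together made up 11301 CPM in WT and 11366 CPM in Lyve1-/-. Each of the 10 had a log2 ratio between -0.25 (Bmp2) and 0.22 (Cd38), with a median of 0.036 beside a median of -0.053 over the 7207 genes with at least 100 UMIs. None of the 10 was past 2-fold, a size that 0.416% of those genes reached. This cluster held 165 WT and 119 Lyve1-/- cells. It was singled out after the data were seen, and its leading genes Cd163 and Ccl7 are those that follow the 10 most closely over clusters, so cells of either library enter it by being alike in such genes. The alignment of the 2 libraries before clustering also brings like cells of both together. A Lyve1-/- cell that had lost the 10 genes could lie in another cluster, and the near-equal levels here do not show what share of cells kept them.

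By gene, Folr2 was at 1289 and 1327 CPM in the WT and Lyve1-/- cells of the Ccl7 Cd163 cluster. Fcna was at 1295 and 1389 CPM, and Cbr2 at 1685 and 1720 CPM. Ednrb was at 945 and 1074 CPM. These 4 were level or slightly higher in the deleted library, by at most 0.18 on the log2 scale. Mrc1 was at 3724 and 3625 CPM, and Igfbp4 at 1037 and 898 CPM. Bmp2, at 477 and 399 CPM, had the lowest log2 ratio of the 10, -0.25 (interval -0.35 to -0.16). Tslp, at 78.2 and 71.6 CPM from 329 and 250 UMIs, had an interval that spans no change (-0.32 to 0.10). Clec10a was at 416 and 448 CPM and Cd38 at 354 and 415 CPM. Clec10a has a close paralog, Mgl2, and reads that fit both equally cannot be assigned, so its level carries that uncertainty.

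**Figure D1:**
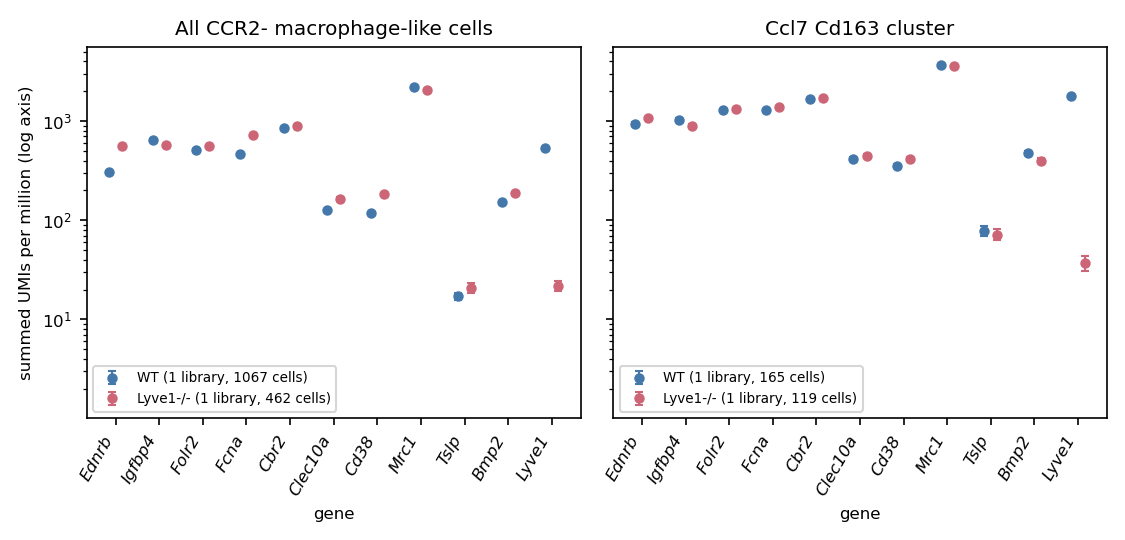
Summed UMIs in CPM (log axis) of the 10 genes and Lyve1 in WT (blue) and Lyve1-/- (red), for all CCR2-negative macrophage-like cells and for the Ccl7 Cd163 cluster, with 95% counting intervals of the 1 library each. In the right panel the points of each of the 10 genes lie close together, while Lyve1 goes from 1793 to 36.6 CPM.

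Levels were also read cell by cell. Each cell was thinned at random to 10200 UMIs, and shallower cells were left out (97 WT and 31 Lyve1-/- cells of the CCR2-negative class), so that all had the same depth. In the Ccl7 Cd163 cluster 145 of 152 thinned WT cells had a Lyve1 UMI, and these cells held a mean of 8.83 of the 10 genes. Of the 113 thinned Lyve1-/- cells 86 had no Lyve1 UMI, and these held a mean of 8.74 of the 10. All 113 Lyve1-/- cells and all 152 WT cells of this cluster held at least 5. Folr2 was detected in 99.3% of the WT and 100% of the Lyve1-/- cells, Ednrb in 95.4% and 98.2%, and Fcna in 92.1% and 92.0%. B and T cells, which should lack most of the 10, gave the background at the same thinned depth. Folr2 was detected there in 0.488% of WT and 0.470% of Lyve1-/- cells, and Ednrb in 0.488% and 0.784%. Their median depths before thinning were 11362 and 13209 UMIs, against 25868 and 28472 UMIs in the Ccl7 Cd163 cluster.

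Over the whole CCR2-negative class, the number of the 10 genes detected per thinned cell averaged 5.52 in WT (970 cells) and 5.82 in Lyve1-/- (431 cells). Without thinning the difference was 0.35, against 0.30 with it. Cells with 5 or more made up 62.2% in WT (interval 59.0 to 65.2%) and 65.7% in Lyve1-/- (61.0 to 70.1%). Within WT, the 404 cells with a Lyve1 UMI held a mean of 7.40 of the 10, and 93.8% of them held 5 or more. The 566 WT cells without a Lyve1 UMI held 4.19 on average, and 39.6% held 5 or more. In Lyve1-/- the 371 cells without a Lyve1 UMI held 5.58 on average, and 61.7% (56.6 to 66.7%) held 5 or more. The most common number among these was 3 of the 10 (50 cells, 13.5%). Among Lyve1-/- cells with a Lyve1 UMI it was 9 (17 cells, 28.3%), so in this class the remaining Lyve1 UMIs also went with more of the 10. The WT split repeats what the genes were chosen for. Lyve1 UMIs in Lyve1-/- cells were found in 13.9% of thinned CCR2-negative cells and also in 6.58% of thinned B and T cells, against 41.6% and 0 of 410 cells (exact upper bound 0.896%) in WT. The cut at 5 is arbitrary: 107 WT and 45 Lyve1-/- cells lay at 4, and 110 and 52 at 5.

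Gene by gene, thinned WT cells of the CCR2-negative class with a Lyve1 UMI, WT cells without one and all Lyve1-/- cells can be set side by side. Ednrb was detected in 79.5%, 29.2% and 58.0% of them, Folr2 in 95.8%, 45.4% and 67.1%, and Fcna in 79.0%, 24.0% and 52.7%. Over all WT cells, the like-for-like match of all Lyve1-/- cells, the shares were 50.1% for Ednrb, 66.4% for Folr2 and 46.9% for Fcna. Cbr2 was detected in 94.8%, 50.7% and 70.3%, Clec10a in 55.2%, 24.9% and 41.3%, and Bmp2 in 53.7% and 26.0% of the WT cells and in 181 of the 431 Lyve1-/- cells. Over all WT cells Cbr2 was detected in 69.1%, and Clec10a and Bmp2 in 37.5% each. Tslp was detected in 89 of the 404 WT cells with a Lyve1 UMI and in 1.94% of those without, in 10.3% of all WT cells and in 15.5% of Lyve1-/- cells. Mrc1 (99.5%, 98.4% and 95.4%) and Igfbp4 (98.8%, 90.5% and 90.5%) were near every cell. Cd38 (61.9%, 27.6% and 49.4%) was detected in 44.4% and 42.2% of thinned WT and Lyve1-/- B and T cells as well. Before thinning, at unmatched depth, Mrc1 was detected in 1060 of all 1067 WT and 449 of all 462 Lyve1-/- cells of the class. Igfbp4 was detected in 1035 and 442 of them, and Cd38 in 531 and 277.

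**Figure D2:**
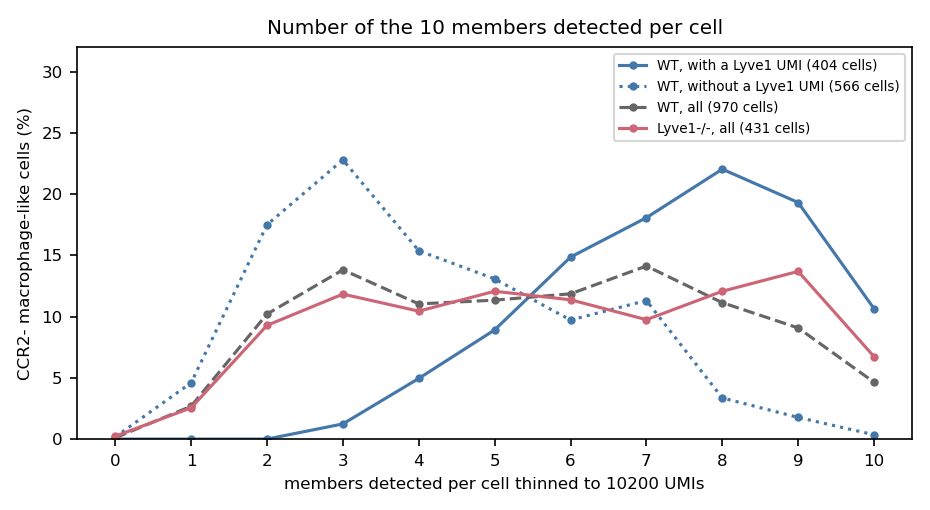
Share of CCR2-negative macrophage-like cells (%) by how many of the 10 genes were detected after thinning to 10200 UMIs. WT cells with a Lyve1 UMI (solid blue, 404 cells) peak at 8 genes and WT cells without one (dotted blue, 566 cells) at 3, and the Lyve1-/- curve (red, 431 cells) spans both, beside that of all WT cells (dashed grey, 970 cells).

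Detection of the 10 genes in the same cells was compared pair by pair. Among the 45 pairs of the 10 in thinned CCR2-negative cells, 44 in WT and 41 in Lyve1-/- had a log2 odds ratio of joint detection above 0, with medians of 2.10 and 2.30. Ednrb and Fcna, for instance, were both detected in 198 of 431 Lyve1-/- cells and neither in 152, with 52 cells holding Ednrb alone and 29 Fcna alone. The 4 pairs at or below 0 in Lyve1-/- were Ednrb with Igfbp4 (1.90 in WT and -0.02 in Lyve1-/-), Igfbp4 with Fcna (1.70 and -0.21), Ednrb with Mrc1 (0.75 and -1.47) and Fcna with Mrc1 (0.06 and -1.80). Igfbp4 and Mrc1 were detected in most cells, so these ratios turn on the cells without them. Of cells without Igfbp4, 13 held Ednrb and 46 did not in WT, against 24 and 17 in Lyve1-/-. Of cells without Mrc1, 4 held Ednrb and 7 did not in WT, against 16 and 4 in Lyve1-/-. The part of cluster make-up in this was not tested. The class pools clusters of differing level. Within the Olfml3 Fcrls cluster 44 of 45 pairs in WT and 39 in Lyve1-/- were above 0 (medians 1.72 and 1.48), and within the Ccl7 Cd163 cluster 40 and 39 (medians 1.78 and 1.72). In the Ccl7 Cd163 cluster Mrc1 was detected in every thinned cell of both libraries, and Folr2 in all 113 of Lyve1-/-. Ratios of pairs with such a gene rest on a small constant added to each count. The counts and medians of that cluster therefore do not describe joint detection. In the Olfml3 Fcrls cluster Mrc1 was missing from 2 thinned cells of each library, and Tslp was detected in 8 of Lyve1-/-. Pairs with Mrc1, and those with Tslp in Lyve1-/-, therefore rest on few cells there. The 10 were chosen as high in the same Lyve1-expressing cells of these libraries, so ratios above 0 follow from the choice. Pairs of other genes were not counted. Cells also share a library and depth, so these are descriptions without a p.

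In the CCR2-negative class as a whole, 8 of the 10 genes had higher and 2 lower summed levels in Lyve1-/- than in WT, and none was past 2-fold (0.474% of 10972 genes were). Of those 10972 genes 68.4% were lower. The median log2 ratio of the 10 was 0.24, beside -0.064 over all genes tested. Lyve1 itself went from 540 to 21.9 CPM, a log2 ratio of -4.11. Ednrb went from 305 to 559 CPM, a log2 ratio of 0.85 (0.81 to 0.89), the largest of the 10. Fcna went from 462 to 719 CPM and Cd38 from 117 to 183 CPM, log2 ratios of 0.63 and 0.60. Clec10a (126 and 165 CPM), Bmp2 (152 and 187 CPM), Tslp (17.0 and 20.9 CPM), Folr2 (508 and 563 CPM) and Cbr2 (847 and 886 CPM) were higher by 0.06 to 0.36. Igfbp4 (639 and 574 CPM) and Mrc1 (2202 and 2043 CPM) were lower, at log2 ratios of -0.15 and -0.11.

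The make-up of the class differed between the libraries. The Ccl7 Cd163 cluster held 15.5% of the CCR2-negative cells in WT and 25.8% in Lyve1-/-, and the Saa3 Prg4 cluster 5.72% and 11.04%. As shares of all kept cells, the Ccl7 Cd163 cluster was 3.94% and 3.51%. With the Lyve1-/- clusters weighted to the WT shares, the median log2 ratio of the 10 was -0.054 in place of 0.24, and without the Ccl7 Cd163 cluster it was -0.14. Whether the shares differ between genotypes, or between these 2 pools, cannot be told apart. Clec10a UMIs came from the Ccl7 Cd163 cluster for 50.5% in WT and 68.6% in Lyve1-/-, and Tslp UMIs for 70.1% and 86.5%. Ednrb drew 15.9% of its UMIs from the Saa3 Prg4 cluster in WT and 38.4% in Lyve1-/-.

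**Figure D3:**
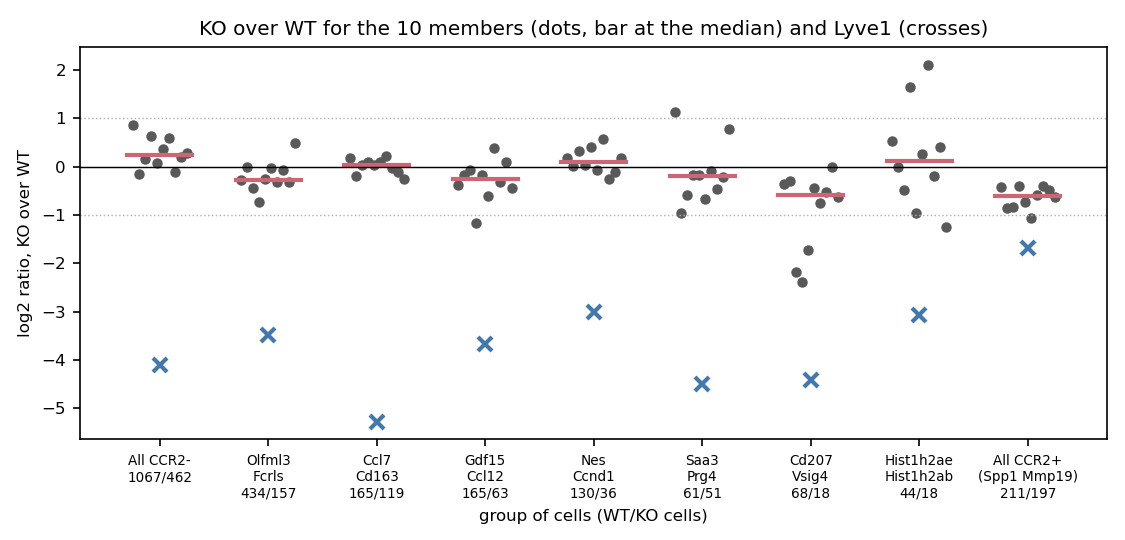
Log2 ratio of Lyve1-/- (KO) over WT for each of the 10 genes (dots, from left to right in the order of the list at the top of the text, red bar at their median) and for Lyve1 (blue crosses), in each group of macrophage-like cells, with numbers of WT/KO cells below. Dotted lines mark 2-fold. The dots lie closest to 0 in the Ccl7 Cd163 cluster, where the Lyve1 cross is lowest at -5.27.

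Outside the Ccl7 Cd163 cluster the 10 genes were lower or more scattered. In the largest cluster, led by Olfml3 and Fcrls (434 and 157 cells), 8 of the 10 were lower in Lyve1-/-, beside 53.1% of genes tested. The median log2 ratio of the 10 was -0.27, beside -0.013 over all genes tested, and none was past 2-fold (0.322% of genes). Fcna went there from 111 to 62.8 CPM and Folr2 from 386 to 280 CPM, log2 ratios of -0.73 and -0.45, while Bmp2 went from 65.2 to 95.7 CPM (0.49) and Igfbp4 held at 629 and 629 CPM. Ccr2 was at 60.4 and 131 CPM in the same cluster. In the Gdf15 Ccl12 cluster (165 and 63 cells) 8 of the 10 were lower (median -0.25), beside 59.2% of genes tested (median -0.052). Of the 9 with enough UMIs, 1 was past 2-fold (0.652% of genes), Fcna, from 142 to 57.3 CPM. In the Nes Ccnd1 cluster (130 and 36 cells), 3 of the 10 were lower and 7 higher, while 58.9% of genes tested were lower. The median of the 10 was 0.095, beside -0.049 over all genes tested.

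In the Saa3 Prg4 cluster (61 and 51 cells), cells were the deepest, with medians of 47261 and 55409 UMIs. Of all genes tested there 52.6% were lower (median -0.019). Of the 10, 8 were lower and 2 higher, with a median of -0.20. The higher pair were Ednrb and Bmp2. Ednrb went from 461 to 1019 CPM, a log2 ratio of 1.13, and Bmp2 from 98.6 to 176 CPM (0.78). Igfbp4 there went from 314 to 157 CPM (-0.96), Clec10a from 187 to 113 CPM (-0.67) and Folr2 from 567 to 377 CPM (-0.58). Ednrb was the 1 of 9 past 2-fold (1.53% of genes). In the Cd207 Vsig4 cluster (68 and 18 cells) 9 of the 10 were lower and 0 higher, with Tslp at 0 UMIs in both libraries. Of all genes tested 53.5% were lower. The median of the 10 was -0.58, beside -0.030 over all genes tested. There Folr2, Fcna and Cbr2, 3 of 7, were past 2-fold and lower (3.23% of genes), for example Folr2 from 322 to 63.3 CPM. Ccr2 was at 22.7 and 192 CPM in those cells. In the Hist1h2ae Hist1h2ab cluster (44 and 18 cells) 5 of the 10 were lower and 5 higher, while 58.4% of genes tested were lower. Of 8 with enough UMIs, 3 were past 2-fold (1.68% of genes).

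The levels by cluster set the genes apart from each other. Fcna was high in the Ccl7 Cd163 and Saa3 Prg4 clusters (1295 and 1715 CPM in WT, 1389 and 1510 CPM in Lyve1-/-) and at 93.6 to 142 CPM in the other 5 WT clusters. Ednrb had the same pair of high clusters, and in the Cd207 Vsig4 cluster it was at 2.84 CPM in WT (4 UMIs) with 0 UMIs in Lyve1-/-, which allows up to 7.30 CPM. Igfbp4 and Mrc1 were broad: Igfbp4 ranged from 314 to 1037 CPM and Mrc1 from 1016 to 3724 CPM over the 7 WT clusters, and both were lowest in the Saa3 Prg4 cluster. Tslp was largely in the Ccl7 Cd163 cluster, with 78.2 CPM there and at most 9.25 CPM in any other WT cluster. Bmp2 ran from 65.2 CPM to 477 CPM.

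**Figure D4:**
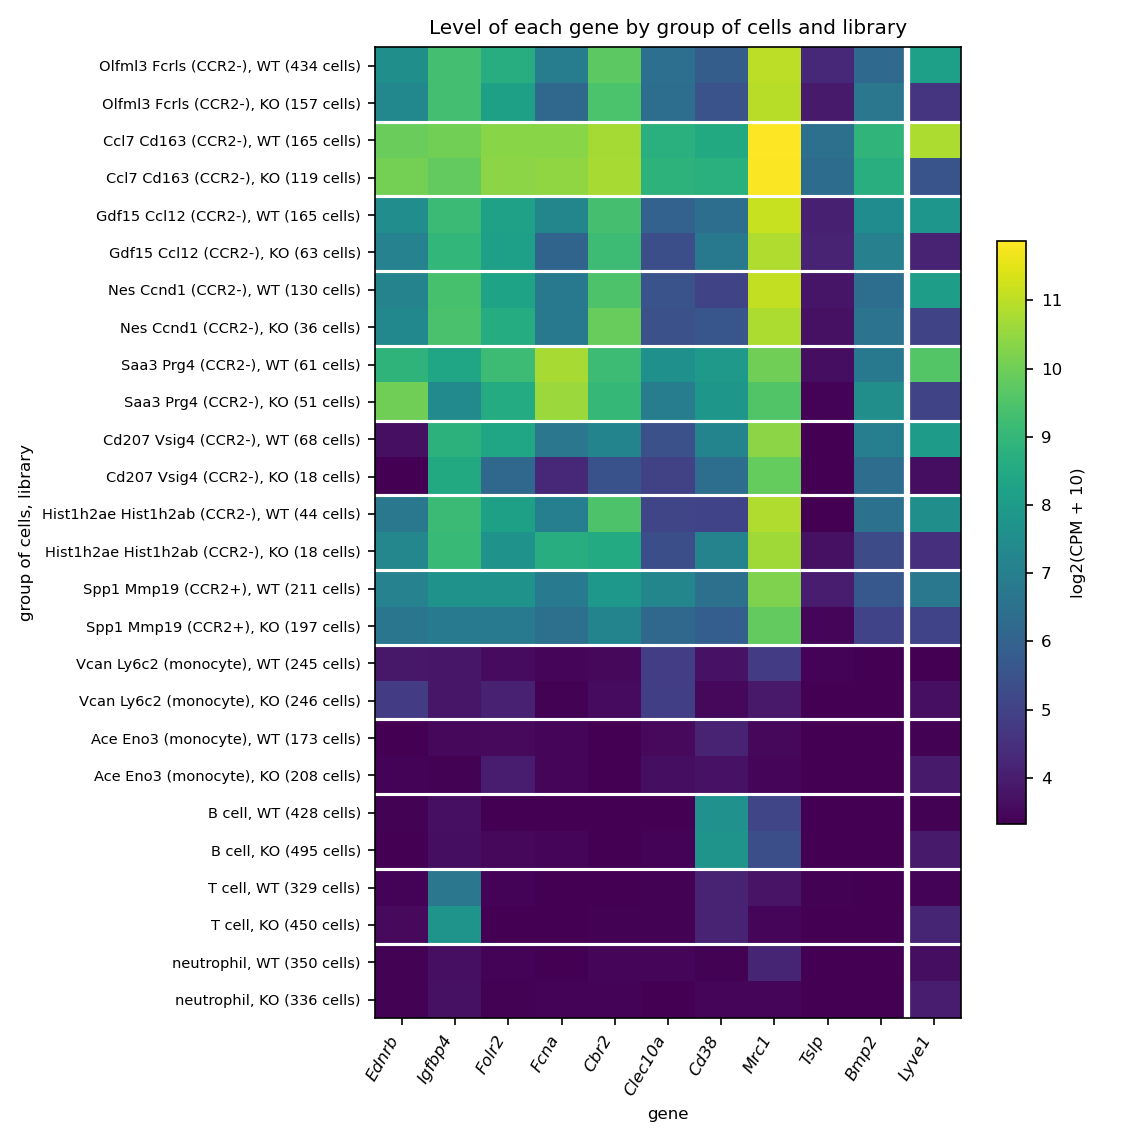
Level of each of the 10 genes and, right of the white line, Lyve1, as log2(CPM + 10), by group of cells (pairs of rows, WT above Lyve1-/-), with the number of cells. The rows of the Ccl7 Cd163 cluster are alike in the first 10 columns and differ in the last, and monocyte-like cells, B cells, T cells and neutrophils are low except for Cd38 and, less so, Mrc1 in B cells and Igfbp4 in T cells.

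Against CCR2-positive cells of the same library, 6 of the 10 were at least 2-fold higher in the CCR2-negative class in WT (3.11% of genes were) and all 10 in Lyve1-/- (3.84% of genes). The median log2 ratio was 1.26 in WT and 2.31 in Lyve1-/-, against 0.15 and 0.098 over all genes. The genes were chosen as high in such cells with both libraries known, so the counts and ratios of both libraries are descriptions. In 5 of 6 other clusterings the WT median was 2.04 to 2.43. The WT CCR2-positive cluster included 19 thinned cells with a Lyve1 UMI, which held a mean of 7.58 of the 10, among 178 cells with a mean of 2.76. In Lyve1-/- the 178 thinned cells of the cluster had a mean of 2.13, and the 21 with a Lyve1 UMI one of 1.71. All 10 were lower in Lyve1-/- than WT in this cluster (median -0.61), beside 57.8% of genes tested (median -0.034). Of 9 with enough UMIs, 1 was past 2-fold (0.467% of genes), Clec10a, from 141 to 61.9 CPM. Thinned cells of this cluster that held 6 of the 10 numbered 13 in WT and 5 in Lyve1-/-. Those that held 9 numbered 8 and 5, and those that held 0 numbered 35 and 38. The comparison of genotypes in this cluster was made in this clustering alone, and the part of cell make-up in it was not tested. Monocyte-like cells held 0.246 and 0.231 of the 10 on average, none held 5 or more, and the highest WT levels there were Clec10a at 14.1 CPM and Mrc1 at 13.1 CPM.

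The pools held male and female hearts, and cells can be sorted by sex from Xist and Y-linked UMIs. Male and female cells of 1 library come from different animals, and their difference also holds any effect of sex and the larger counting error of fewer cells, so it is no measure of the spread between hearts. In the Ccl7 Cd163 cluster the median absolute log2 ratio of the 10 between genotypes was 0.108, against 0.233 between female and male WT cells and 0.223 between female and male Lyve1-/- cells. In the Nes Ccnd1 cluster it was 0.166 between genotypes, against 0.358 and 0.338 between sexes. In other clusters the order was the other way, with 0.299 between genotypes against 0.043 and 0.248 in the Olfml3 Fcrls cluster, 0.520 against 0.295 and 0.510 in the Saa3 Prg4 cluster, and 0.581 against 0.337 and 0.374 in the Cd207 Vsig4 cluster. In the Gdf15 Ccl12 cluster it was 0.346 against 0.254 and 0.377, and in the Hist1h2ae Hist1h2ab cluster 0.511 against 0.671 and 1.82. In the whole class it was 0.24 between genotypes, against 0.123 and 0.238 between sexes. Within male cells of the class the median log2 ratio Lyve1-/- over WT was 0.31 (720 and 245 cells), and within female cells 0.045 (281 and 184 cells). Ednrb was higher in both, by 0.998 in male and 0.55 in female cells. In the Ccl7 Cd163 cluster Bmp2 was level in male cells (431 and 440 CPM) and lower in female cells (528 and 323 CPM, a log2 ratio of -0.69). Ednrb was level there in male cells (985 and 964 CPM) and higher in female cells (847 and 1235 CPM, a log2 ratio of 0.54). Folr2 was at 1231 and 1288 CPM in male and 1383 and 1401 CPM in female cells of that cluster.

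**Figure D5:**
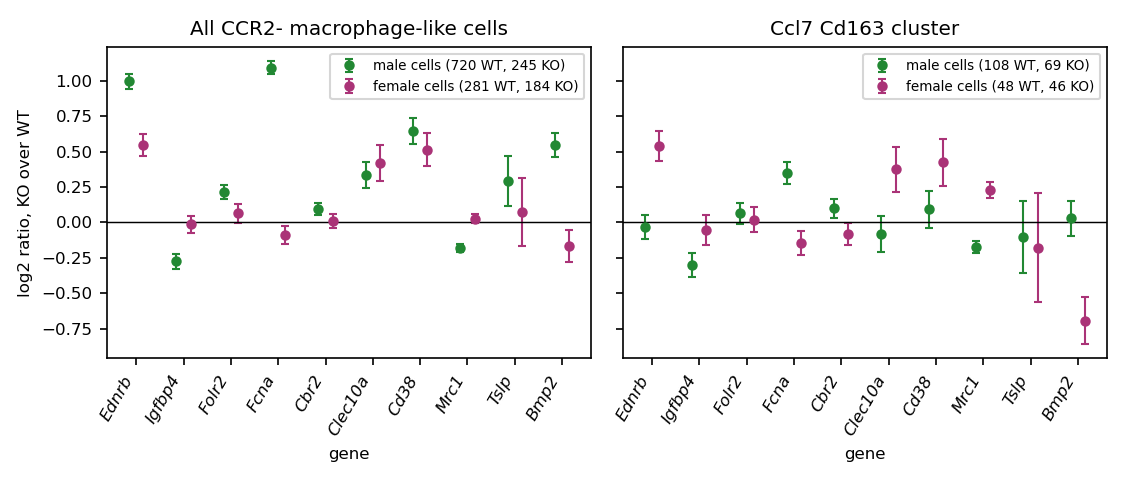
Log2 ratio of Lyve1-/- (KO) over WT for each of the 10 genes in male (green) and female (purple) cells, with 95% counting intervals, in all CCR2-negative macrophage-like cells (left) and in the Ccl7 Cd163 cluster (right). Ednrb in the left panel is above 0 in both sexes (0.998 and 0.55), and Fcna in the left panel is at 1.09 in male cells and -0.088 in female cells.

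Levels of markers of other cell types stand beside these results. In the Ccl7 Cd163 cluster the lymphatic endothelial list summed to 21.1 CPM in WT and 12.6 CPM in Lyve1-/-, with 3 of its 6 markers at 0 in each, and the blood endothelial list to 53.0 and 41.8 CPM, with 3 and 2 of its 10 markers at 0. The cardiomyocyte list summed to 279 and 177 CPM, with none of its 10 markers at 0, the fibroblast list to 49.7 and 54.4 CPM, and the erythroid list to 68.2 and 8.59 CPM. Their part in the levels was not tested. Cd38 and Igfbp4 are not particular to macrophages: Cd38 was at 192 and 205 CPM in B cells and Igfbp4 at 94.2 and 205 CPM in T cells. Mrc1 was at 24.9 and 31.7 CPM in B cells, and the other 7 were at most at 1.55 CPM in B cells or T cells of either library.

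Genes with the most alike pattern were sought over the 57 clusters of at least 30 cells in a library (29 WT, 28 Lyve1-/-), as the Pearson correlation of log2(CPM + 10) with the mean of the 10. The clusters were not macrophages alone, so r also holds the difference between macrophages and other cell types. The scavenger receptor gene Cd163 (r = 0.976), the chemokine genes Ccl7 (0.967) and Pf4 (0.963), Gas6, the ligand of phagocytic receptors (0.963), Pmp22 (0.962), the complement genes C1qa (0.960), C1qc (0.959) and C1qb (0.951), Snx6 (0.952) and Scamp5 (0.943) stood highest. Lyve1 followed the 10 over WT clusters with r = 0.985 and over Lyve1-/- clusters with r = 0.357. The first value follows from the choice of the 10 as marks of Lyve1-expressing cells, and the second was taken where Lyve1 was deleted. Clusters of 1 library share depth and composition, so these values rank genes and carry no p. Of the 10 themselves, Folr2 followed the mean of the other 9 most closely (0.969 over WT and 0.967 over Lyve1-/- clusters) and Cd38 least (0.526 and 0.526). In the CCR2-negative class Cd163 was at 197 and 214 CPM, Ccl7 at 609 and 728 CPM and Pf4 at 2898 and 2224 CPM. Log2 ratios of Lyve1-/- over WT there were above 0 for Cd163 (0.11), Ccl7 (0.25) and Pmp22 (0.091). They were below 0 for Pf4 (-0.38), Gas6 (-0.28), Scamp5 (-0.23), C1qa (-0.15), C1qb (-0.15), C1qc (-0.14) and Snx6 (-0.13).

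Pathways around the 10 genes were read from lists of their ligands, receptors, targets and related enzymes. Of 72 partner genes, 46 had at least 100 UMIs in the CCR2-negative class, of which 0 were past 2-fold higher and 1 lower, with a median log2 ratio of -0.062. Over all 10972 genes tested in these cells 0.474% were past 2-fold, and the median was -0.064, so the partner genes as a set lay near all genes.  In the endothelin axis, the converting enzyme Ece1 (8.24 and 11.3 CPM) was the 1 of 6 with enough UMIs. Edn1, which encodes a ligand of the receptor, gave 18 and 8 UMIs over the class. In the insulin-like growth factor axis Igf1, the factor itself, had the highest level (445 and 524 CPM), and 0 of 4 were past 2-fold. In folate handling 0 of 10 were, with Ggh, which trims folate polyglutamates, highest at 92.2 and 89.0 CPM. Among lectins 0 of 4 were, with the C-type lectin gene Clec4n highest at 278 and 266 CPM. Mgl2, the paralog of Clec10a, was at 108 and 215 CPM, a log2 ratio of 0.93, just inside 2-fold. Among carbonyl and NAD enzymes 0 of 10 were, with NAD kinase Nadk highest at 98.4 and 102 CPM. In the TSLP axis 0 of 5 were, with the kinase gene Jak1 highest at 238 and 232 CPM, and the receptor gene Crlf2 was at 110 and 111 CPM. In the BMP axis 1 of 12 was, Id1, a target of BMP signalling that blocks basic helix-loop-helix factors, from 41.7 to 10.5 CPM (log2 ratio -1.33, interval -1.47 to -1.19). Id2, highest in that list, was at 488 and 381 CPM, and Id3 at 291 and 225 CPM. Id1 UMIs were found in 192 WT and 63 Lyve1-/- cells of the class. In CCR2-positive cells Id1 was at 17.5 and 6.41 CPM, Id2 at 470 and 402 CPM and Id3 at 301 and 165 CPM. These genes were not read by cluster or by sex. Edn1, Mgl2, Crlf2 and Id3 were named after their values were seen.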

How the data were processed

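Live CD45+ cells from the ventricles of neonatal mice were profiled in 2 droplet libraries, 1 WT and 1 Lyve1-/-. The authors deposited raw UMI counts per gene and barcode, not normalized, which the submitters' processing notes credit to Cell Ranger 8.0.1 and mm10. Every column of counts was used (0 left out).

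The study's limits on cells were applied: 500 genes or more, 250 UMIs or more, and no more than 30% of UMIs from mitochondrial genes. Doublets were ranked with Scrublet (scanpy 1.11.5) and left out at the rate that the number of barcodes leads one to expect (98 WT and 73 Lyve1-/- cells), because Scrublet's own threshold marked 3 and 7 cells. The 2 libraries were aligned by anchor-based integration in Seurat 5.3.0 (R 4.3.3), and cell cycle scores were regressed out. Cells were then clustered (2000 variable genes, 30 dimensions, resolution 0.8). Macrophage and monocyte clusters were integrated and clustered again, both times without Lyve1, the 10 genes and the pathway genes. Clusters were named from marker lists by a rule set after the data were seen. Macrophage clusters were called CCR2-negative where their Ccr2 level lay below that of all macrophage and monocyte cells together, and CCR2-positive otherwise. UMIs were summed per library and group of cells in Python 3.11.15 (pandas 2.3.3, numpy 2.4.6) and scaled to CPM. Ratios are of CPM + 10 on the log2 scale, and 2-fold marks a large one. Values over all genes, and counts past 2-fold, are of genes with at least 100 UMIs. Medians of the 10, and counts of those lower or higher, include all 10, also those with fewer UMIs. Intervals are exact Poisson for CPM, exact binomial for shares (scipy 1.17.1) and Poisson-based for log2 ratios, and cover counting error only. With 1 library per genotype no test was made. The sums and ratios were run on simulated counts with planted fold changes and counting error alone. Those counts had no spread between hearts and no change of cluster make-up, so they are no check on the differences between genotypes. Figures used matplotlib 3.10.9.

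The members and lists were chosen with earlier results of these data known. Genes named are Lyve1, Ccr2, the 10 genes, in each pathway list those past 2-fold and the one of highest level, and the 10 genes most alike over clusters of at least 30 cells. Alternatives changed the added CPM, the scaling, the cell weights, sex, thinning, cell limits, doublets and clustering.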

Additional observations from a re-analysis of the deposited data

Results flagged for a closer look

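In some members male and female cells had opposite log2 ratios of Lyve1-/- over WT. The difference between the sexes was not tested. In the CCR2-negative class Fcna was at 1.09 in male and -0.088 in female cells, and Bmp2 at 0.55 and -0.17. In the Ccl7 Cd163 cluster Fcna was at 0.35 and -0.14, Cbr2 at 0.099 and -0.083, and Mrc1 at -0.17 and 0.23.

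Outside the macrophages, some of the genes were above the WT level in Lyve1-/- cells. Ednrb was at 11.4 CPM in Lyve1-/- and 3.27 CPM in WT monocyte-like cells, and Folr2 at 6.74 and 1.76 CPM. Igfbp4 was at 205 and 94.2 CPM in T cells, and at 277 and 9.45 CPM (56 and 3 UMIs) in mast cells or basophils. Lyve1 UMIs were found in many cell types of the Lyve1-/- library: 5.37 CPM in B cells (0.33 in WT), 8.59 CPM in T cells (0.54 in WT), 36.2 CPM in NK cells or ILC (2.12 in WT), 21.0 CPM in dendritic cells (0 in WT), 49.4 CPM in mast cells or basophils (3.15 in WT) and 3.68 CPM in monocyte-like cells (0.13 in WT). Their source was not tested.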

How the results depend on the processing

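No paired analysis was possible because there was 1 library per genotype. In the Ccl7 Cd163 cluster, added after the data were seen, the median log2 ratio of the 10 genes stayed between -0.018 and 0.091 under every alternative run, none of the 10 passed 2-fold, and its share of the class was 7.92 to 13.2 percentage points higher in Lyve1-/-. In each other clustering, the cluster taken was the one that held most of the same cells (92.6 to 98.6% of those kept). Every clustering also aligned the 2 libraries first. These runs therefore describe largely the same cells and are no independent check of the near-equal levels. In the whole CCR2-negative class the median of 0.24 was 0.29 with 1 CPM added, 0.30 with median-of-ratios size factors, 0.31 in male cells (1 gene past 2-fold), 0.045 in female cells, 0.31 without the Saa3 Prg4 cluster, 0.18 at resolution 0.4, -0.054 with Lyve1-/- clusters weighted to WT shares and -0.14 without the Ccl7 Cd163 cluster. Single genes changed sign: under WT shares Folr2 (-0.14), Cbr2 (-0.069), Clec10a (-0.038), Tslp (-0.11) and Bmp2 (-0.0031), without the Ccl7 Cd163 cluster Folr2 (-0.26), Cbr2 (-0.20), Clec10a (-0.076) and Tslp (-0.22), without the Saa3 Prg4 cluster Igfbp4 (0.017) and Mrc1 (0.031), and in female cells Fcna (-0.088), Mrc1 (0.027) and Bmp2 (-0.17). The median over CCR2-positive cells (1.26 WT, 2.31 Lyve1-/-) was 1.40 and 2.50 with 1 CPM added, 1.07 and 2.17 with size factors, 1.47 and 2.61 with equal cell weights, 1.12 and 2.79 in male cells, 1.41 and 1.45 in female cells, 2.32 and 3.19 with all variable genes, 2.43 and 3.18 without cell cycle regression, 2.32 and 3.17 with stricter cell limits, 2.04 and 3.08 with no doublets left out, 2.18 and 3.21 at resolution 1.2, and 1.91 in Lyve1-/- at resolution 0.4. The difference in genes per thinned cell of 0.30 was 0.48 in male and 0.075 in female cells, and that between WT cells with and without a Lyve1 UMI, 3.22, was 3.43 without thinning. The causes were not tested.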
